A study of Rattus norvegicus with 18 samples.

Results

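The scavenger and lectin phagocytic receptors described here are 10 named genes, Msr1, Marco, Colec12, Cd36, Scarb1, Scarb2, Olr1, Mrc1, Cd163 and Stab1. They were chosen as a family by name and function, with earlier results of these data known. Of the 10, 9 were among the gene symbols of the count tables, which list 17307 symbols for astrocytes and 17327 for microglia. The symbol Stab1 was not among them. Marco and Cd163 had 0 counts in all 18 libraries, so 7 receptors carried a measurement.

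Primary astrocytes and primary microglia were grown from the cerebral cortex of wild-type Sprague-Dawley rat pups at postnatal day 2, and both were moved to serum-free medium before treatment. Each cell type was left untreated as control, or was given Aβ42 fibrils or Aβ40 fibrils of wild-type sequence at 25 µM for 24 h, with 3 libraries for each of the 6 groups. Microglia were shaken off mixed glial cultures and astrocytes were the layer that stayed attached, so each culture could hold some cells of the other kind. Nothing in the labels says that the replicates of a group came from separate litters or cultures, so the p-values measure the spread between these libraries, which may be technical.

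Scavenger receptors are cell surface proteins of macrophages and related cells that bind modified lipoproteins, negatively charged polymers, dying cells and aggregated proteins, and take them up. Lectin receptors bind sugar chains. In brain, several of these proteins on microglia are known to bind fibrillar Aβ, and others, such as the mannose receptor and the hemoglobin receptor CD163, are best known from macrophages at the borders of the brain.

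The level of a gene is given as scaled CPM, which is the count on that gene relative to all counts on genes of the library, after scaling for composition. Levels were compared only within a gene, since gene length was not accounted for. A difference is given as a log2 fold change with a standard error (SE). For edgeR the SE is the absolute log2 fold change divided by the square root of the test's F statistic. It is not a direct output of the fit and can be far too small near a change of 0. A gene was called changed at an adjusted p-value under 0.05 in edgeR's quasi-likelihood test, whatever its fold. The libraries held 3674043 to 19013919 counts on genes in astrocytes and 2271834 to 22274367 in microglia, and the control astrocyte libraries included the 2 shallowest astrocyte libraries. All microglia Aβ40 libraries were shallow, with 4104702, 4425805 and 2271834 counts. The intervals and limits on counts given below cover counting error only. Microglia Aβ42 replicate 1, with 2613723 counts, stood apart from the other two replicates of its group, and so did astrocyte control replicate 2. Values without these libraries are given where they changed the call of a receptor or named gene, or moved a value against control or a count of calls by over 1.5 times.

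The cultures carried the markers of their labels, and markers of other cells as well. The 12 astrocyte markers summed in astrocytes to between 9125 and 11071 scaled CPM in control, 5855 and 6071 with Aβ42 fibrils, and 6527 and 6814 with Aβ40 fibrils, and to between 254 and 298 in the microglia libraries. The 13 microglia markers among the symbols, such as Aif1, Csf1r and Itgam, also had lower sums in treated microglia. There they summed to between 8421 and 9512 in control, 2881 and 3942 with Aβ42 fibrils, and 3441 and 3851 with Aβ40 fibrils. Itgam went the other way in microglia, from 413 in control to 778 and 851, scaled over all 18 libraries. In astrocytes the 13 markers summed to between 680 and 730 in control, 312 and 338 with Aβ42 fibrils, and 321 and 328 with Aβ40 fibrils. Sall1 made up much of these sums. Scaled over all 18 libraries, it stood at 202 in control astrocytes and 179 with each fibril. In microglia it stood at 55.6 in control, 35.9 with Aβ42 and 48.4 with Aβ40 fibrils. The sums thus understate the falls of other markers, such as Csf1r from 115 to 4.71 and 2.79. Of the 13 markers, 11 fell in astrocytes with each fibril, where 20.4% of all genes were called lower with Aβ42 and 18.4% with Aβ40 fibrils. Oligodendrocyte lineage markers summed to between 1941 and 3272 in the astrocyte libraries and 2583 and 3910 in the microglia libraries. Fibroblast and mural markers summed to between 1441 and 1725 in astrocytes and 771 and 1204 in microglia. Endothelial markers summed to between 77.0 and 317, and 274 and 336. In these bulk samples, fewer cells of a type and less RNA per cell cannot be told apart.

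The promoters of 8 of the 10 receptors were in the RefSeq table of rat promoters (build GRCr8). The 250 bases before the transcription start are shown for Cd36 and Mrc1, whose counts fell the most in microglia, and for Olr1, whose response differed between the cell types. All 3 are written 5′ to 3′ on the strand of the gene, and capitals mark the only match to a searched motif. They lie at chr4:18246332-18246581 (plus strand) for Cd36, chr17:82157475-82157724 (plus strand) for Mrc1 and chr4:164634548-164634797 (minus strand) for Olr1.
Cd36: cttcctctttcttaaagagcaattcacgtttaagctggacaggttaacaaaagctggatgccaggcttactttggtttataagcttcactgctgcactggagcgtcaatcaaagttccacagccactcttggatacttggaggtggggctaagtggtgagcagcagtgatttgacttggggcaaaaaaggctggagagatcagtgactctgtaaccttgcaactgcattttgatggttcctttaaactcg
Mrc1: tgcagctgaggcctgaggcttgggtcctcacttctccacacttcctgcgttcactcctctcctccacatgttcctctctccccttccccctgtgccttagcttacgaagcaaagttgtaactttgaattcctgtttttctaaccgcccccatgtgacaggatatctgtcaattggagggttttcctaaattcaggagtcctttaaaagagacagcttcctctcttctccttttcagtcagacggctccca
Olr1: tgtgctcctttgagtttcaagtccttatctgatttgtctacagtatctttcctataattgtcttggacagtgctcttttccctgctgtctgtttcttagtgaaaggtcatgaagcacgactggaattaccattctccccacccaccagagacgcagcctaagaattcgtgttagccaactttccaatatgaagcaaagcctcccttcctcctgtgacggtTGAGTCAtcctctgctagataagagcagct

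Both strands of each window were searched for 6 short motifs. The Olr1 window held the AP-1 motif TGANTCA starting 30 bases before the start, a motif present in 6.34% of the 33469 promoters of the table. The windows of Cd36, Mrc1, Scarb2, Marco and Cd163 held no match to any of the 6, and those of Colec12 and Stab1 held the NF-kB type motif GGANTTCC, present in 3.85% of promoters. The other motifs were GAGGAAGT (PU.1, 2.04% of promoters), TTGCNNAA (C/EBP, 9.22%), GAAANNGAA (interferon response type, 8.12%) and CACGTG (E-box, 5.59%). A match is a run of letters and does not show that a factor binds there, and the lack of a match says only that these letters are not in this window.

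**Figure D1:**
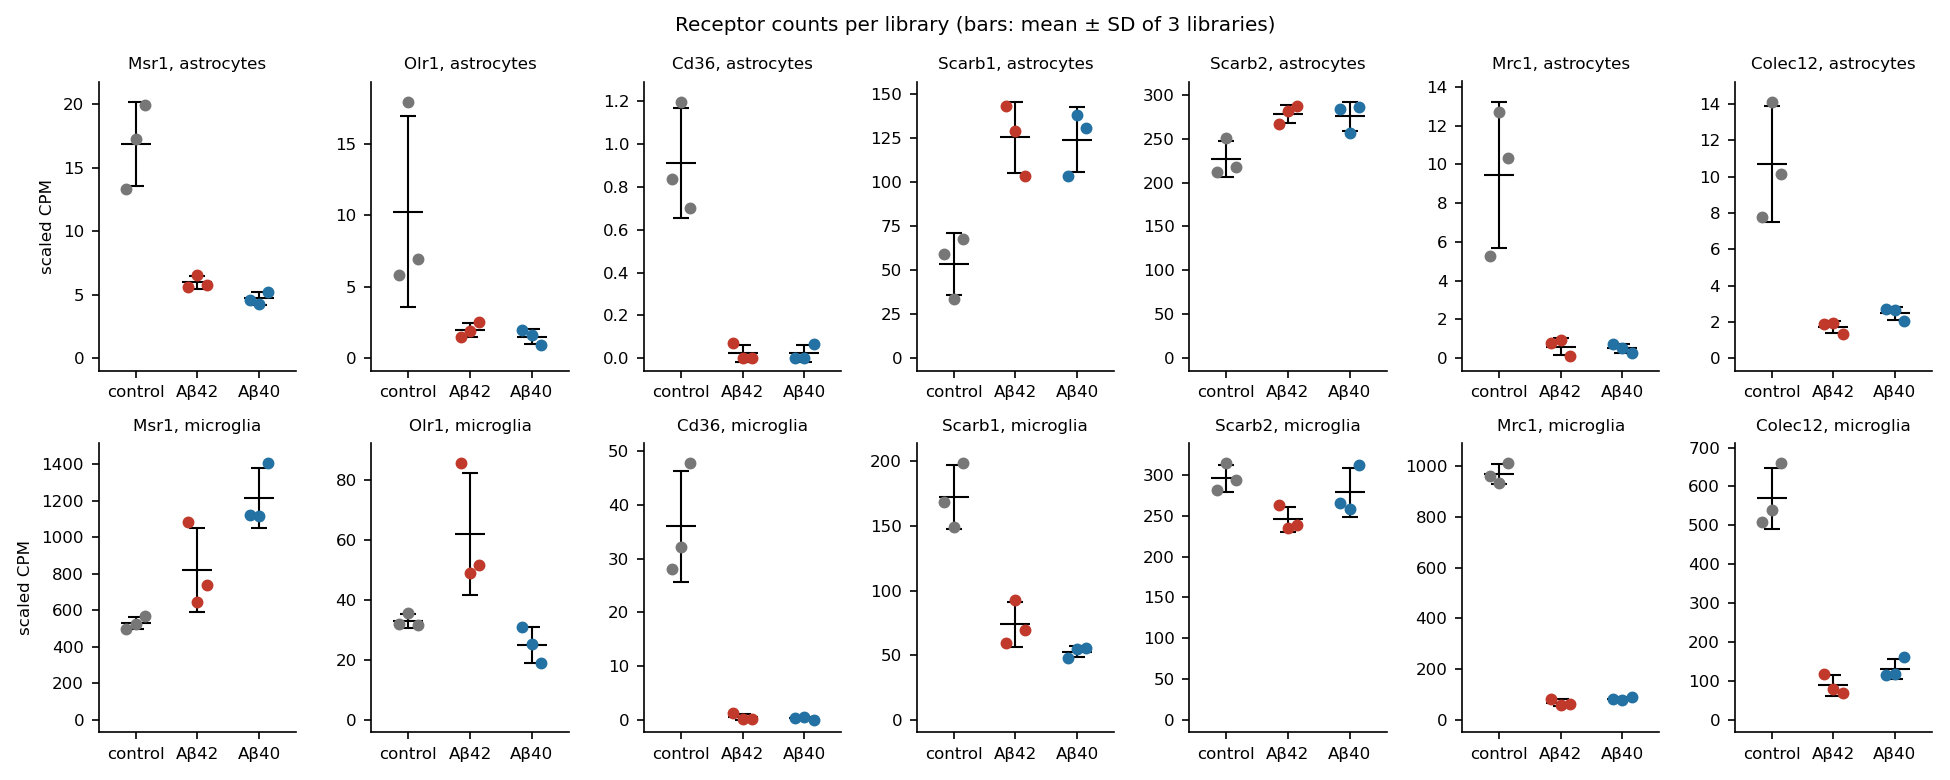
Scaled CPM of the 7 receptors with any count in each library (points, 3 for each group) with the mean and SD (black bars), for astrocytes in the upper panels and microglia in the lower panels. Each panel has its own linear axis. Mrc1, Colec12 and Cd36 were low in all fibril-treated libraries of both cell types, while Msr1 was lower in treated astrocytes and higher in treated microglia.

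In untreated cells, all 7 receptors with counts were higher in microglia than in astrocytes. Of all 11581 genes tested in the fit of both cell types, 34.2% were called higher in control microglia. Mrc1 differed the most (log2 fold change 6.89 ± 0.26, or 119-fold), followed by Colec12 (5.99 ± 0.24), Cd36 (5.66 ± 0.37) and Msr1 (5.19 ± 0.19). Olr1 (2.00 ± 0.32), Scarb1 (1.93 ± 0.22) and Scarb2 (0.64 ± 0.11, or 1.56-fold) differed less. The adjusted p-values ran from 2.89e-14 for Msr1 to 2.99e-05 for Scarb2.

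Control astrocytes held 0.819% of the microglial level of Mrc1, 1.58% of Colec12, 2.13% of Cd36 and 2.68% of Msr1. They held 26.1% of the microglial level of Scarb1, 26.1% of Olr1 and 64.3% of Scarb2. By the same measure, 9 of the 13 microglia markers stood between 1.46% and 6.98% in control astrocytes. The other 4 stood above 10%, among them Tmem119 (55.3%), Cx3cr1 (59.6%) and Sall1 (364%). Mrc1, Colec12, Cd36 and Msr1 thus had astrocyte levels within or under the range of most microglia markers, and Scarb1, Olr1 and Scarb2 had levels above it. The part of microglial RNA in the astrocyte values was not tested.

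**Figure D2:**
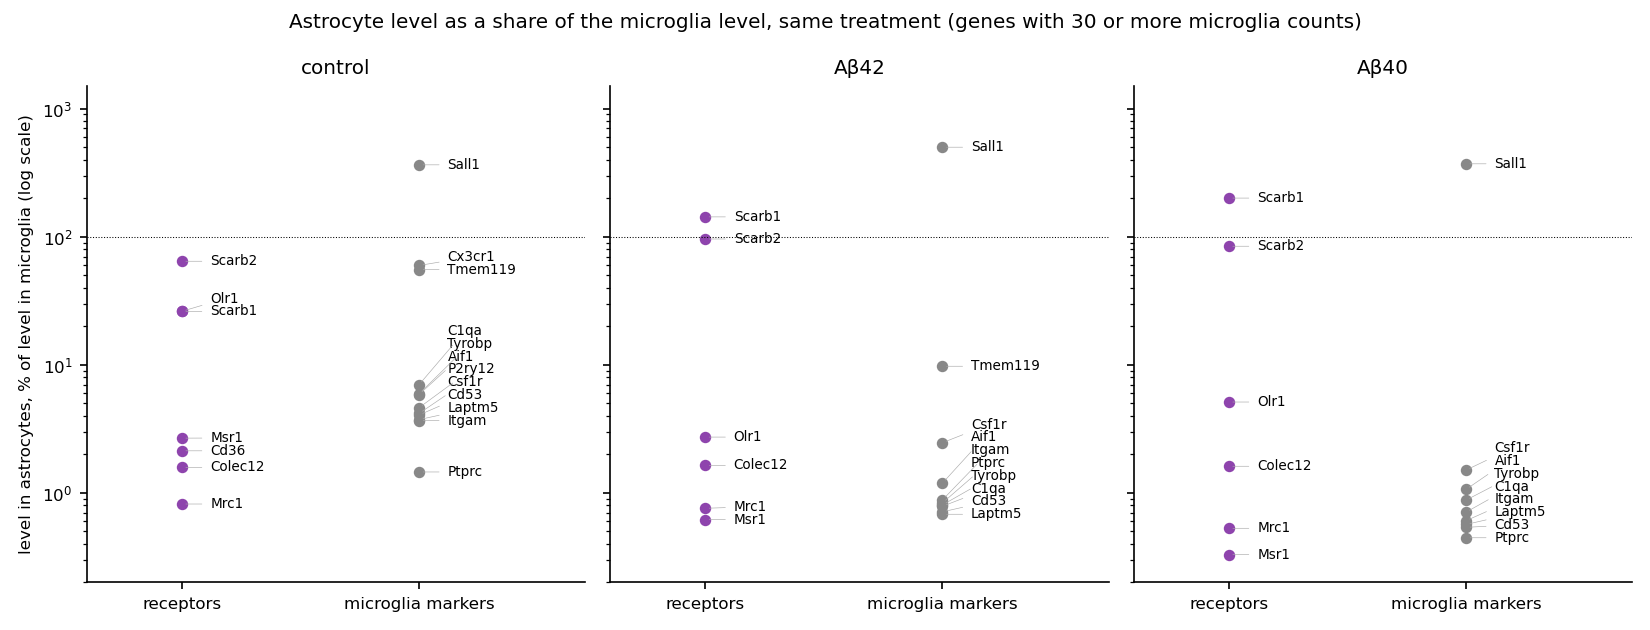
Mean level in astrocytes as a percentage of the mean level in microglia under the same treatment (log scale), for the receptors and the microglia markers with 30 or more counts in microglia, except 1 marker that is counted in the text and not plotted. The dotted line marks equal levels. Scarb1 moved from 26.1% in control to 143% with Aβ42 fibrils and 200.1% with Aβ40 fibrils, and Msr1 moved from 2.68% to 0.618% and 0.330%.

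The response to the fibrils was compared with control in each cell type. In astrocytes treated with Aβ42 fibrils, 4 of the 6 receptors tested were lower (Msr1, Mrc1, Olr1 and Colec12), where 20.4% of all genes tested were called lower, and Scarb1 was higher, where 16.5% were called higher. The same 5 receptors changed the same way with Aβ40 fibrils, where 18.4% of all genes were called lower and 14.9% higher. In microglia treated with Aβ42 fibrils, Cd36, Mrc1, Colec12, Scarb1 and Scarb2 were lower and Msr1 and Olr1 were higher, where 26.6% of all genes tested were called lower and 27.1% higher. With Aβ40 fibrils, Cd36, Mrc1, Colec12 and Scarb1 were lower and Msr1 was higher in microglia, against 21.4% and 19.6% of all genes. The libraries of the treated and control groups did not overlap for any of the 6 receptors tested in astrocytes, of which 4 were lower and 2 higher with each fibril. Of all genes tested there, 23% lay wholly below and 22.7% wholly above control with Aβ42 fibrils, and 21.3% and 21.9% with Aβ40 fibrils. In microglia, all 7 receptors were without overlap with Aβ42 fibrils, 5 lower and 2 higher, where 28.2% and 25.8% of all genes were so. With Aβ40 fibrils 6 of 7 were without overlap, 5 lower and 1 higher, against 30.5% and 29.0% of all genes. The fibril comparisons of a cell type share their control libraries, so they are not independent of each other. The responses of the 2 cell types differed for 4 of 7 receptors with Aβ42 fibrils and 3 of 7 with Aβ40 fibrils, by a test of the interaction of cell type and treatment that called 37.3% and 32.5% of all genes. Both cell types came from mixed glial cultures, so their libraries may share a source. The fit of all 18 libraries treats them as independent, and a shared source was not tested.

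**Figure D3:**
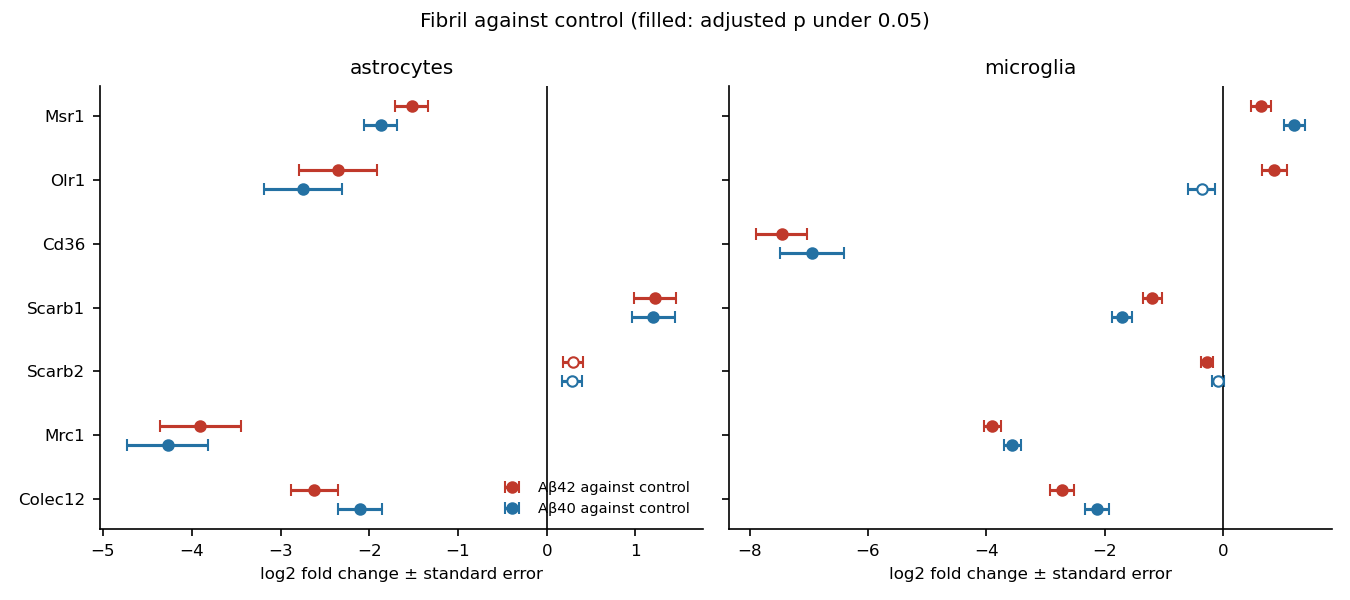
Log2 fold change against control with its SE for each receptor tested, in astrocytes (left) and microglia (right), with Aβ42 fibrils in red and Aβ40 fibrils in blue. Filled points passed an adjusted p-value of 0.05. Cd36 was not tested in astrocytes. Scarb1 lies to the right of 0 in astrocytes and to the left in microglia, and Msr1 does the opposite.

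Among the collagenous scavenger receptors, Msr1 encodes scavenger receptor class A, a trimeric surface protein that binds modified lipoproteins and fibrillar Aβ. In microglia, Msr1 stood at 499.6, 522 and 566 scaled CPM in control, 1083, 644 and 739 with Aβ42 fibrils, and 1122, 1115 and 1405 with Aβ40 fibrils. Every treated microglia library was above every control library, and the highest values were those of the Aβ40 group. The log2 fold change of Msr1 was 0.63 ± 0.17 for Aβ42 fibrils (1.55-fold, adjusted p = 0.00867) and 1.20 ± 0.17 with Aβ40 fibrils (2.29-fold, adjusted p = 0.000145). Without Aβ42 replicate 1, the Aβ42 value was 0.38 and was still called.

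In astrocytes, Msr1 stood at 13.4, 17.2 and 19.98 scaled CPM in control, 5.63, 6.57 and 5.76 with Aβ42 fibrils, and 4.57, 4.28 and 5.25 with Aβ40 fibrils. Every treated library was below every control library. The log2 fold change of Msr1 was -1.52 ± 0.19 for Aβ42 fibrils (adjusted p = 7.77e-05) and -1.87 ± 0.19 for Aβ40 fibrils (adjusted p = 1.84e-05). The opposite responses of the 2 cell types differed, with an interaction of 2.15 ± 0.25 for Aβ42 fibrils (adjusted p = 1.98e-06) and 3.06 ± 0.25 for Aβ40 fibrils (adjusted p = 2.78e-08). Of all genes tested, 19.3% were called for an interaction in this direction with Aβ42 fibrils and 16.0% with Aβ40 fibrils.

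Colec12, a collagenous receptor with a lectin domain that binds sugars and oxidized lipoproteins, fell in both cell types. In microglia it stood at 508, 540.1 and 659 scaled CPM in control, 118, 77.8 and 67.8 with Aβ42 fibrils, and 115, 117 and 161 with Aβ40 fibrils. In astrocytes the values were 7.79, 14.1 and 10.1 in control, 1.85, 1.92 and 1.32 with Aβ42 fibrils, and 2.70, 2.67 and 2.06 with Aβ40 fibrils. No treated library reached a control library in either cell type.

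In microglia, Colec12 fell by 2.73 on the log2 scale with Aβ42 fibrils (adjusted p = 4.51e-07) and by 2.13 with Aβ40 fibrils (adjusted p = 4.17e-06). In astrocytes Colec12 changed by -2.62 on that scale with Aβ42 fibrils (adjusted p = 1.82e-05) and by -2.11 with Aβ40 fibrils (adjusted p = 6.03e-05). The responses of the cell types were not shown to differ for either fibril (interactions of -0.12 ± 0.38 and -0.04 ± 0.38, adjusted p = 0.842 and 0.954). Marco, a related collagenous receptor of macrophages that binds bacteria, was at 0 in every library. A count of 0 over all libraries of a cell type allows up to 3 counts, or 0.0409 CPM in microglia and 0.0304 CPM in astrocytes.

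Cd36 encodes a class B scavenger receptor that takes up oxidized lipoproteins and fatty acids and is known to bind fibrillar Aβ. In control microglia it had 239, 167 and 313 counts, or 28.2, 32.3 and 47.7 scaled CPM. With Aβ42 fibrils it had 3, 2 and 3 counts, in libraries of 2613723, 22274367 and 17687416 counts, and with Aβ40 fibrils it had 1, 2 and 0 counts. The Aβ42 libraries stood at 3.33%, 0.240% and 0.475% of the control mean in scaled CPM (mean 1.35%), so replicate 1, the shallowest, was the highest. The Aβ40 libraries stood at 0.669%, 1.24% and 0% (mean 0.637%). The summed counts, in which deep libraries weigh the most, were 0.522% of control against library totals with Aβ42 fibrils (8 against 719 counts, 95% exact interval of the counts 0.224% to 1.03%) and 0.782% with Aβ40 fibrils (3 counts, 0.161% to 2.29%), and these intervals do not cover the spread between libraries. Cd36 was lower with both fibrils (adjusted p = 3.79e-08 and 6.02e-07), and its fitted change with Aβ42 fibrils was the 6th lowest of 10837 genes tested. The fitted log2 fold changes, -7.46 and -6.94, depend on the prior count of the fit at these low counts.

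In astrocytes Cd36 did not pass the filter on low counts and was not tested. It had 3, 5 and 10 counts in the control libraries, 1, 0 and 0 with Aβ42 fibrils, and 0, 0 and 1 with Aβ40 fibrils. The summed counts were 3.73% of control (95% exact interval 0.0894% to 23.6%) with Aβ42 fibrils and 2.82% (0.0676% to 17.8%) with Aβ40 fibrils. Every treated library was under every control library, as for Cd36 in microglia.

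Scarb1, a class B receptor best known for binding high-density lipoprotein and moving cholesterol, changed in opposite directions in the 2 cell types. In astrocytes it stood at 59.0, 33.5 and 67.7 scaled CPM in control, 143, 129 and 104 with Aβ42 fibrils, and 103, 138 and 131 with Aβ40 fibrils. In microglia it stood at 169, 149.5 and 198 in control, 59.2, 92.9 and 69.5 with Aβ42 fibrils, and 48.0, 54.8 and 55.2 with Aβ40 fibrils. Every treated astrocyte library was above its controls and every treated microglia library was below them.

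Scarb1 rose in astrocytes by a log2 fold change of 1.22 ± 0.24 with Aβ42 fibrils (2.32-fold, adjusted p = 0.00206) and 1.20 with Aβ40 fibrils (adjusted p = 0.00247). Without astrocyte control replicate 2, which had the lowest level, these values were 0.98 and 0.96. In microglia Scarb1 fell by 1.20 on the log2 scale with Aβ42 fibrils (adjusted p = 5.46e-05) and by 1.71 with Aβ40 fibrils (adjusted p = 5.18e-06). The interaction was -2.42 ± 0.30 for Aβ42 fibrils (adjusted p = 3.78e-06) and -2.93 ± 0.31 for Aβ40 fibrils (adjusted p = 5.51e-07), in a direction called for 17.9% and 16.5% of all genes. The level in astrocytes was 26.1% of that in microglia in control, 143% with Aβ42 fibrils and 200.1% with Aβ40 fibrils.

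Scarb2 encodes LIMP-2, a lysosomal membrane protein of the same family that carries glucocerebrosidase to the lysosome. It moved the least of the 7 receptors. In astrocytes it stood at 212, 250.4 and 217 scaled CPM in control, 267, 281 and 287 with Aβ42 fibrils, and 284, 257 and 286 with Aβ40 fibrils. No treated astrocyte library overlapped the controls, but neither change passed the test (log2 fold changes 0.30 and 0.28, adjusted p = 0.0601 and 0.0775). Without control replicate 2, the highest control library, the values were 0.38 and 0.37 and were called (adjusted p = 0.00747 and 0.0105), and DESeq2's Wald test called Scarb2 with all libraries (adjusted p = 0.0301 and 0.0479).

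In microglia Scarb2 stood at 281, 314 and 293 scaled CPM in control, 263, 235 and 239 with Aβ42 fibrils, and 266, 258 and 313 with Aβ40 fibrils. The fitted change of Scarb2 was -0.27 on the log2 scale for Aβ42 fibrils (adjusted p = 0.0456), a call that did not hold under most alternatives, and -0.09 with Aβ40 fibrils (adjusted p = 0.534), whose libraries overlapped the controls. The responses of the 2 cell types differed with Aβ42 fibrils (interaction -0.58 ± 0.15, adjusted p = 0.00508). With Aβ40 fibrils the interaction was -0.39 ± 0.15 (adjusted p = 0.0538). It was called at -0.48 without astrocyte control replicate 2 (adjusted p = 0.0144), at -0.40 without microglia Aβ42 replicate 1 (adjusted p = 0.0402) and at -0.48 without microglia Aβ40 replicate 3 (adjusted p = 0.0279).

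Of the lectin receptors, Mrc1 encodes the mannose receptor CD206, which binds mannose-rich sugar chains and collagen. In microglia it stood at 961, 934 and 1012 scaled CPM in control, 82.4, 55.9 and 60.4 with Aβ42 fibrils, and 81.3, 77.4 and 87.8 with Aβ40 fibrils. The 6 treated libraries lay far below the controls and close to each other. Mrc1 fell by 3.90 ± 0.15 on the log2 scale with Aβ42 fibrils (14.9-fold, adjusted p = 1.32e-09) and by 3.56 with Aβ40 fibrils (11.8-fold, adjusted p = 2.90e-09).

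In astrocytes Mrc1 stood at 5.29, 12.7 and 10.3 scaled CPM in control, 0.755, 0.910 and 0.120 with Aβ42 fibrils, and 0.727, 0.535 and 0.266 with Aβ40 fibrils. The change in Mrc1 was -3.90 ± 0.46 on the log2 scale for Aβ42 fibrils (adjusted p = 5.55e-05) and -4.27 for Aβ40 fibrils (adjusted p = 2.93e-05), with 21 counts left in all 3 libraries of each treated group. The interaction was -0.0017 for Aβ42 fibrils (adjusted p = 0.976) and 0.70 ± 0.43 for Aβ40 fibrils (adjusted p = 0.236). For the Aβ42 value the SE derived from F was 0.029, which is not usable so close to 0. DESeq2's Wald test gave 0.09 ± 0.43 for Mrc1 with Aβ42 fibrils, so a difference between the cell types was not detectable with so few counts in astrocytes.

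Olr1 encodes LOX-1, a C-type lectin-like receptor for oxidized low-density lipoprotein, and it was the only one of the 7 whose microglial mean lay above control with Aβ42 fibrils and below it with Aβ40 fibrils. In microglia it stood at 31.8, 35.7 and 31.6 scaled CPM in control, 85.6, 48.9 and 51.5 with Aβ42 fibrils, and 30.9, 25.3 and 18.8 with Aβ40 fibrils. All Aβ42 libraries were above the controls. All Aβ40 libraries were below them, at 93.5%, 76.5% and 57.0% of the control mean. The log2 fold change of Olr1 was 0.86 ± 0.21 for Aβ42 fibrils (1.81-fold, adjusted p = 0.00442) and -0.37 ± 0.23 with Aβ40 fibrils (adjusted p = 0.228). Without Aβ42 replicate 1, the highest library, the value for Aβ42 fibrils was 0.60 and was still called, and the value for Aβ40 fibrils was -0.35 and was then called (adjusted p = 0.0396).

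In astrocytes Olr1 stood at 5.84, 17.95 and 6.96 scaled CPM in control, 1.51, 1.92 and 2.52 with Aβ42 fibrils, and 1.97, 1.605 and 0.930 with Aβ40 fibrils. It fell by 2.35 on the log2 scale with Aβ42 fibrils (adjusted p = 0.00155) and by 2.75 with Aβ40 fibrils (adjusted p = 0.000619). Without control replicate 2, which was the highest, the log2 fold changes were -1.77 and -2.17 and were still called. The cell types differed in their response, with an interaction of 3.21 ± 0.49 for Aβ42 fibrils (adjusted p = 4.28e-05) and 2.35 ± 0.50 for Aβ40 fibrils (adjusted p = 0.00127). The level in astrocytes went from 26.1% of that in microglia in control to 2.73% with Aβ42 fibrils and 5.12% with Aβ40 fibrils. Cd163, the receptor for hemoglobin bound to haptoglobin, was at 0 in all libraries, under the same limit as Marco.

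The falls of Msr1, Mrc1, Olr1, Colec12 and Cd36 in astrocytes stood beside falls of the microglia markers. With each fibril, 11 of the 13 microglia markers were lower in astrocytes and 0 were higher, and the median of the 13 on the log2 scale was -3.08 for Aβ42 and -3.15 for Aβ40 fibrils, against medians of about 0 over all genes tested (-0.0047 and 0.0017). In microglia themselves, 9 of the 13 were lower and 1 was higher with Aβ42 fibrils (median -1.03), and 10 were lower and 1 was higher with Aβ40 fibrils (median -1.25). Of all genes tested in microglia, 26.6% were called lower and 27.1% higher with Aβ42 fibrils, and 21.4% and 19.6% with Aβ40 fibrils. Under treatment, most of the microglia markers that could be measured had astrocyte levels between 0.681% and 9.74% of microglia with Aβ42 fibrils (9 of 11), and between 0.446% and 1.51% with Aβ40 fibrils (8 of 10). Msr1, Mrc1 and Colec12 stood at 0.618%, 0.758% and 1.64% with Aβ42 fibrils and at 0.330%, 0.529% and 1.61% with Aβ40 fibrils. Scarb1 and Scarb2 did not fall in astrocytes. Other markers fell in the same astrocyte libraries. Of 11 astrocyte markers tested, 8 were lower and 2 higher with Aβ42 fibrils (median -0.94), and 7 lower and 3 higher with Aβ40 fibrils (median -0.83), and of 5 border macrophage markers 3 were lower with each fibril (medians -2.81 and -3.31). Of fibroblast and mural markers 4 of 9 were lower and 1 was higher with each fibril, and of oligodendrocyte lineage markers 4 of 10 were lower and 0 higher. Of endothelial markers 3 of 7 were lower and 1 higher with Aβ42 fibrils, and 2 of 7 lower and 0 higher with Aβ40 fibrils. Of all genes tested in astrocytes, 20.4% were called lower and 16.5% higher with Aβ42 fibrils, and 18.4% and 14.9% with Aβ40 fibrils. The endothelial count with Aβ40 fibrils lies near that share. The part of microglial RNA, or of other shifts in cell make-up, in these changes was not tested.

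Mrc1 and Cd163 are also known from border macrophages, so the markers of those cells were read in microglia. The 8 listed border macrophage markers summed to between 296 and 470 scaled CPM in control, 343 and 523 with Aβ42 fibrils, and 286 and 328 with Aβ40 fibrils, and 1 of them was at 0 in each group. Folr2, a folate receptor, had log2 fold changes of -4.50 for Aβ42 and -4.84 for Aβ40 fibrils, and Siglec1, a sialic acid-binding lectin, of -4.11 and -3.89. Pf4, a platelet-type chemokine, rose from 97.6 ± 8.996 scaled CPM to 307 ± 56.6 and 221 ± 9.35, and Ms4a7 rose from 26.9 ± 3.85 to 98.7 ± 28.0 and 68.6 ± 8.97. F13a1, which had 3 counts in all control libraries together, had 159 with Aβ42 and 11 with Aβ40 fibrils. These markers thus moved in both directions while Mrc1 fell.

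The fibrils were then compared with each other. In astrocytes, 0 of the 6 receptors tested differed between Aβ42 and Aβ40 fibrils by edgeR, where 0.0855% of all genes were called. At an unadjusted p-value under 0.05 in that test there were 0 receptors, against 737 of all 11690 genes. DESeq2's Wald test called 0 receptors, against 141 of all genes. The log2 differences ran from -0.52 ± 0.28 for Colec12 to 0.39 ± 0.49 for Olr1, so differences of this size could not be told from 0 with 3 libraries a group.

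In microglia, 3 of the 7 receptors differed between the fibrils, where 11.3% of all genes were called higher and 9.01% lower with Aβ42 fibrils. Olr1 was higher with Aβ42 than with Aβ40 fibrils (log2 difference 1.22 ± 0.22, 2.34-fold, adjusted p = 0.0115), and so was Scarb1 (0.52 ± 0.17, adjusted p = 0.0498), while Msr1 was lower (-0.57 ± 0.17, adjusted p = 0.0403). Aβ42 replicate 1 had a higher Msr1 level than the other Aβ42 libraries. Without it the log2 difference of Msr1 was -0.81 (adjusted p = 2.38e-05), that of Olr1 was 0.95 (adjusted p = 2.56e-05), and Colec12 (-0.82), Mrc1 (-0.49) and Scarb2 (-0.23) were also called lower with Aβ42 fibrils, which made 6 of 7. All genes called in this comparison rose at the same time from 2198 to 6004. They numbered between 99 and 154 without any one of the other 5 fibril-treated libraries, and between 1048 and 1612 without 1 control library, so the share of all genes called rested on which libraries were fitted. Without Aβ42 replicate 1, the Aβ42 libraries held 22274367 and 17687416 counts and the Aβ40 libraries 4104702, 4425805 and 2271834. Fibril and depth cannot be told apart in that fit. For Msr1, Colec12, Mrc1, Scarb1 and Scarb2, the shallow Aβ42 replicate 1 lay nearer the Aβ40 libraries than the other Aβ42 libraries did. For Olr1 and Cd36 it lay further away. The part of depth in these differences was not tested. The calls of Scarb1 and Msr1 were lost in most other alternatives, and that of Olr1 when Aβ40 replicate 2 or 3 was left out (adjusted p = 0.0546 and 0.0548) or when the 2 fibril groups were fitted alone (adjusted p = 0.0557).

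The wider receptor and uptake machinery was read from 7 further lists, with the genes named being those with the largest called folds in the Aβ42 comparison. The counts below stand against the shares of all genes called higher and lower, which were 16.5% and 20.4% with Aβ42 and 14.9% and 18.4% with Aβ40 fibrils in astrocytes, and 27.1% and 26.6% with Aβ42 and 19.6% and 21.4% with Aβ40 fibrils in microglia. Leaving out astrocyte control replicate 2 raised them in astrocytes to 22.1% and 24.8%, and 19.6% and 22.2%. Leaving out microglia Aβ42 replicate 1 raised them in microglia to 34.6% and 35.7%, and 26.4% and 27.6%. Among the genes named from the lists, 1 changed its call without these libraries, Src with Aβ40 fibrils. Among 15 other scavenger receptors, 5 of the 11 tested in astrocytes rose and 1 fell with Aβ42 fibrils, and 4 rose and 2 fell with Aβ40 fibrils. Scara5, a class A receptor for ferritin, went from 0.509 ± 0.042 scaled CPM (mean ± SD of 3 libraries) in control up to 14.5 ± 1.47 with Aβ42 fibrils and 7.99 ± 0.907 with Aβ40 fibrils. Cxcl16, a transmembrane chemokine that also binds oxidized lipoprotein, rose from 118 ± 25.4 to 1322 ± 44.7 and 963 ± 13.9, and Scara3 fell from 115 ± 21.8 to 57.7 ± 5.95 and 61.5 ± 5.52. In the astrocyte cultures, counts of Msr1 thus fell while those of the related Scara5 rose. Msr1 stood in control astrocytes at 2.68% of the microglial level, within the range of most microglia markers. The part of microglial RNA in its fall was not tested. Without control replicate 2, 4 of 12 other scavenger receptors fell with each fibril.

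In microglia, 4 of 10 other scavenger receptors rose and 1 fell with Aβ42 fibrils, and 3 rose and 2 fell with Aβ40 fibrils. Scarf1, a scavenger receptor first known from endothelial cells, rose from 12.3 ± 1.19 scaled CPM to 43.1 ± 14.2 with Aβ42 fibrils and 43.5 ± 0.971 with Aβ40 fibrils. Cd14, a co-receptor for lipopolysaccharide and fibrillar Aβ, rose from 516 ± 26.3 to 1227 ± 92.0 and 1189 ± 37.5. Cd68, a lysosomal protein of phagocytes, fell from 2381 ± 179 to 898 ± 461 and 1167 ± 289. Without Aβ42 replicate 1, 6 of 12 rose and 3 fell with Aβ42 fibrils, and 4 rose and 3 fell with Aβ40 fibrils.

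Of 20 other lectin receptors, 13 were tested in microglia, and 6 rose and 6 fell with Aβ42 fibrils, while 5 rose and 7 fell with Aβ40 fibrils. Clec4d and Clec4e, neighbouring C-type lectins that bind microbial glycolipids, rose from 5.41 ± 1.54 and 7.89 ± 2.996 scaled CPM to 254 ± 17.5 and 138 ± 4.17 with Aβ42 fibrils, and to 225 ± 9.59 and 117 ± 5.03 with Aβ40 fibrils. Clec4a1 and Clec4a2, C-type lectins of the same cluster, fell from 449.8 ± 79.7 and 11.5 ± 2.15 to 14.8 ± 3.31 and 0.277 ± 0.241 with Aβ42 fibrils, and to 13.9 ± 2.50 and 0.624 ± 0.296 with Aβ40 fibrils. Mrc1 therefore fell among lectin receptors that moved strongly in both directions. The Clec4a genes are close paralogs, and how reads shared between them were counted is not given in the sources used here.

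In astrocytes, 2 of 10 other lectin receptors rose and 5 fell with Aβ42 fibrils, and 2 rose and 6 fell with Aβ40 fibrils. Pla2r1, a member of the mannose receptor family, rose from 4.05 ± 0.330 scaled CPM to 50.7 ± 0.622 with Aβ42 fibrils and 41.98 ± 3.69 with Aβ40 fibrils, and Siglec5 from 1.91 ± 0.242 to 5.63 ± 1.17 and 4.19 ± 0.176. Clec7a, the β-glucan receptor dectin-1, fell from 28.0 ± 8.39 to 1.601 ± 0.411 and 1.46 ± 0.376, and Clec12a from 4.71 ± 1.96 to 0.199 ± 0.077 and 0.167 ± 0.038. Clec7a and Clec12a are genes of myeloid cells and fell together with the microglia markers given above. Siglec5 rose in the same libraries, so these lectin receptors did not fall as a set.

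**Figure D4:**
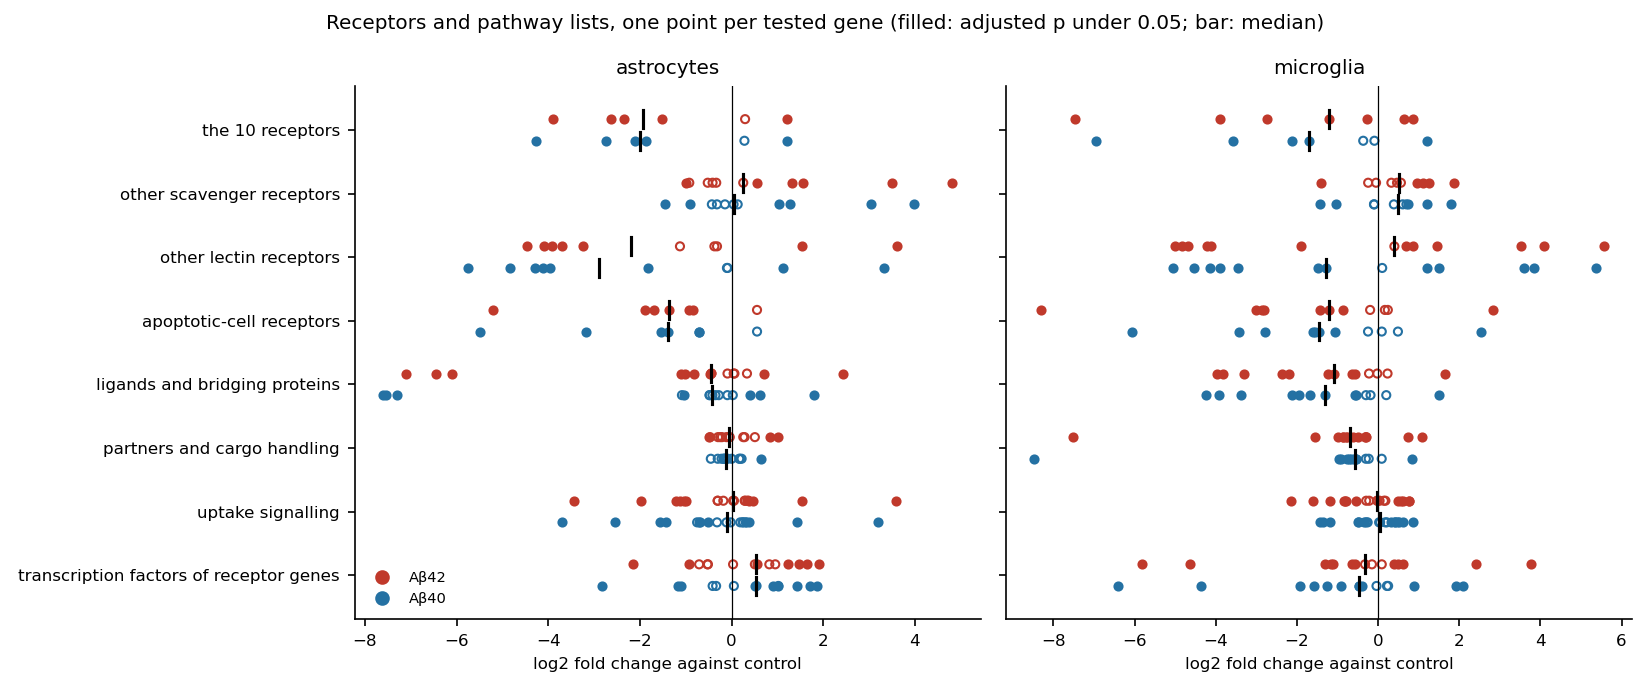
Log2 fold change against control of every tested gene of the 10 receptors and of 7 lists of related genes (1 point for each gene, filled at an adjusted p-value under 0.05), with Aβ42 fibrils in red and Aβ40 fibrils in blue. The black bar is the median of the list. The lectin receptors of microglia spread from -4.997 for Clec4a1 to 5.55 for Clec4d with Aβ42 fibrils.

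Of the receptors for apoptotic cells, 6 of 7 tested fell and 0 rose in astrocytes with each fibril, against 20.4% and 18.4% of all genes called lower and 11 of 13 microglia markers lower in the same libraries. Trem2, a lipid-binding receptor of microglia, fell in astrocytes from 14.6 ± 6.32 scaled CPM to 0.394 ± 0.261 with Aβ42 fibrils and 0.318 ± 0.185 with Aβ40 fibrils, and Cd300lf, also a gene of myeloid cells, from 2.06 ± 0.566 to 0.585 ± 0.031 and 0.233 ± 0.089. In microglia, 7 of 11 fell and 1 rose with each fibril (2 rose without Aβ42 replicate 1), against 26.6% and 21.4% of all genes called lower. Havcr1, a phosphatidylserine receptor, fell in microglia from 57.1 ± 11.4 to 0.357 ± 0.394 and 1.003 ± 0.737, and Itgb5, an integrin subunit, from 389 ± 54.0 to 46.7 ± 13.6 and 35.5 ± 5.40. Havcr2, which encodes TIM-3, rose from 11.6 ± 1.54 to 84.0 ± 19.4 and 66.3 ± 10.9.

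Of 15 ligands and bridging proteins, 1 rose and 9 fell of 13 tested in microglia with each fibril. In astrocytes, where all 15 were tested, 2 rose and 7 fell with Aβ42 fibrils, and 3 rose and 4 fell with Aβ40 fibrils (7 fell without control replicate 2). Without Aβ42 replicate 1, 3 of 14 rose in microglia with Aβ42 and 2 with Aβ40 fibrils. Clu, clusterin, which binds Aβ, rose in both cell types, from 430.5 ± 35.6 scaled CPM to 1351 ± 38.1 and 1209 ± 26.7 in microglia and from 1632 ± 245 to 2669 ± 112 and 2518 ± 46.1 in astrocytes. Hp, haptoglobin, which brings hemoglobin to CD163, rose in astrocytes from 2.24 ± 0.257 to 12.4 ± 0.874 and 8.07 ± 0.572, in cells where Cd163 was at 0. C1qa, a subunit of complement C1q, fell in microglia from 569.9 ± 130.0 to 35.2 ± 11.4 and 29.7 ± 6.76, and in astrocytes from 47.3 ± 23.9 to 0.329 ± 0.083 and 0.246 ± 0.078. C1qc fell in microglia from 484 ± 104.9 to 33.6 ± 8.04 and 31.6 ± 6.17, and C1qb in astrocytes from 78.8 ± 19.3 to 0.894 ± 0.187 and 0.385 ± 0.153.

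Of 15 partners and cargo-handling genes, 11 of 14 tested fell and 2 rose in microglia with Aβ42 fibrils, and 10 fell and 1 rose with Aβ40 fibrils. In astrocytes, 1 of 13 fell and 2 rose with Aβ42 fibrils, and 0 fell and 1 rose with Aβ40 fibrils by edgeR. With Aβ40 fibrils 2 of the 13 had an unadjusted p-value under 0.05 by that test, as had 4989 of all 11690 genes. Without control replicate 2, 4 fell and 5 rose with Aβ42 and 3 fell and 2 rose with Aβ40 fibrils. Hmox1, heme oxygenase, rose with Aβ42 fibrils in microglia from 318 ± 43.1 scaled CPM to 668 ± 117 and in astrocytes from 105 ± 35.4 to 188 ± 6.33. With Aβ40 fibrils it stood at 338 ± 40.4 in microglia (adjusted p = 0.677) and 119 ± 4.59 in astrocytes (adjusted p = 0.587). Cav1, caveolin, rose in microglia from 171 ± 16.3 to 287 ± 25.6 and 307 ± 27.3. Stap1, a signalling adaptor, fell in microglia from 137 ± 11.1 to 0.767 ± 0.276 and 0.395 ± 0.366, and Dab2, an endocytic adaptor, from 1824 ± 127 to 626 ± 346 and 1080 ± 114. Adam17, a protease that sheds surface proteins, rose in astrocytes from 102 ± 13.4 to 208 ± 11.2 and 159 ± 4.81. Abca1, a lipid exporter, fell in astrocytes from 158 ± 36.1 to 112 ± 5.64 with Aβ42 fibrils and stood at 116 ± 3.69 with Aβ40 fibrils (adjusted p = 0.0509).

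Of 19 uptake signalling genes tested in microglia, 5 rose and 7 fell with Aβ42 fibrils, and 5 rose and 5 fell with Aβ40 fibrils, where 27.1% and 26.6%, and 19.6% and 21.4%, of all genes were called. These counts lie near the shares over all genes, and without Aβ42 replicate 1 the numbers for Aβ40 fibrils were 8 and 8. Syk, a kinase downstream of phagocytic receptors, fell in microglia from 325 ± 25.7 scaled CPM to 106 ± 10.6 and 121 ± 3.24, and Gulp1, an engulfment adaptor, from 29.1 ± 5.58 to 7.29 ± 2.43 and 11.4 ± 1.30. Rac2, a small GTPase of phagocytes, rose in microglia from 906 ± 144 to 1541 ± 236 and 1636 ± 194. Src rose with Aβ42 fibrils from 23.5 ± 1.48 to 38.0 ± 10.9 and stood at 30.8 ± 5.42 with Aβ40 fibrils (adjusted p = 0.119, and 0.00811 without Aβ42 replicate 1).

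In astrocytes, 4 of 19 uptake signalling genes rose with each fibril, and 6 fell with Aβ42 and 7 with Aβ40 fibrils. Tlr2, a Toll-like receptor known to act together with CD36, rose in astrocytes from 7.40 ± 1.91 scaled CPM to 93.5 ± 7.07 and 70.8 ± 6.32. Cd47, the signal against engulfment, rose from 53.1 ± 14.3 to 154 ± 15.4 and 142 ± 15.2. Syk fell from 13.3 ± 3.18 to 1.18 ± 0.292 and 0.984 ± 0.146, and Vav1, an exchange factor of blood cells, from 7.91 ± 1.98 to 2.05 ± 0.291 and 1.37 ± 0.143.

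The last list held transcription factors known to act on scavenger receptor genes. In microglia, 5 of 15 tested rose and 7 fell with Aβ42 fibrils, where 27.1% and 26.6% of all genes were called, and 3 rose and 9 fell with Aβ40 fibrils, where 19.6% and 21.4% were called. The number that rose lies near the share over all genes with each fibril. Pparg, a nuclear receptor for which Cd36 is a known target, fell in microglia from 32.5 ± 9.27 scaled CPM to 0.529 ± 0.233 with Aβ42 fibrils and 0.310 ± 0.269 with Aβ40 fibrils. Irf4, a factor of alternatively activated macrophages in which Mrc1 is a marker, fell from 30.8 ± 1.40 to 1.79 ± 1.24 and 1.46 ± 0.299. Klf4 rose from 12.5 ± 2.31 to 65.7 ± 13.5 and 47.8 ± 7.54, and Cebpb from 14.9 ± 3.45 to 202 ± 96.5 and 65.1 ± 7.27.

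In astrocytes, 5 of 14 of these factors rose and 2 fell with Aβ42 fibrils, and 6 rose and 3 fell with Aβ40 fibrils (without control replicate 2, 4 fell with each). Cebpb rose from 49.8 ± 25.4 scaled CPM to 186 ± 24.4 and 181 ± 21.5, and Klf4 from 21.0 ± 7.71 to 67.2 ± 11.6 and 71.0 ± 10.5. Spi1, which encodes the myeloid factor PU.1, fell from 17.4 ± 7.22 to 3.87 ± 0.705 and 2.38 ± 0.536, and Maf from 24.6 ± 5.32 to 13.1 ± 1.27 and 11.6 ± 1.20.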

How the data were processed

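RNA of 9 astrocyte and 9 microglia libraries was sequenced by the authors with a stranded mRNA kit for 150 cycles. Reads were aligned with STAR to the rat assembly rn5 and quantified with Salmon, and per the labels DESeq2 was also used (versions not given). The authors deposited 1 table of counts per library, as whole numbers for each gene symbol that are not normalized. Reads not assigned to a single gene, 21.7% to 34.2% of a library, were left out, and 0 columns of samples of other series were present. Depth, as counts on genes, varied by a factor of 5.18 among the astrocyte libraries and of 9.80 among the microglia libraries.

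Counts were scaled by TMM, filtered by filterByExpr (minimum count 10, minimum total 15) and fitted with edgeR 4.0.16 in R 4.3.3 by glmQLFit and glmQLFTest, with Benjamini-Hochberg adjustment over all genes tested (11690 in astrocytes, 10837 in microglia). Differences between cell types were tested on 11581 genes in a fit of all 18 libraries, over the 16704 symbols shared by both kinds of table. In total, 9 comparisons were made. An exact permutation test of 3 against 3 libraries cannot give a p-value under 0.1. In simulated counts with 200 genes set to change 8-fold, the test called 98.5% of them in the astrocyte fit of 11690 genes, 100% in the microglia fit of 10837 and 96.5% in the interaction over 11581. No simulated library was set apart from its group. These rates thus do not cover smaller changes, such as those of Scarb2, Msr1, Olr1 and Scarb1, or libraries that stand apart.

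The members and lists were chosen with earlier results of these data known. All 10 receptors are named, and of each list up to 2 genes in each direction and cell type with the largest called fold in the Aβ42 comparison. DESeq2 1.42.0, its size factors, library totals, other filters, a fit of 2 groups alone, a block for the replicate number and omission of each replicate were the alternatives. Counts over the lists without the library that stood apart in each cell type were added after seeing the data. Replicate numbers did not pair the libraries. Coordinates of promoters are those of GRCr8, and no coordinates of rn5 are given. Protein sequences and reads were not used here. A microglia marker that enters the marker counts, sums and medians is not reported here by name.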

Additional observations from a re-analysis of the deposited data

Results flagged for a closer look

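The response to the fibrils differed between the cell types, by edgeR's test of the cell type by treatment interaction, for 4 of 7 receptors with Aβ42 fibrils and 3 of 7 with Aβ40 fibrils, where 37.3% and 32.5% of all genes were called. With Aβ42 fibrils the log2 difference (microglial response minus astrocytic response) was 2.15 for Msr1, 3.21 for Olr1, -2.42 for Scarb1 and -0.58 for Scarb2. With Aβ40 fibrils it was 3.06 for Msr1, 2.35 for Olr1 and -2.93 for Scarb1. Msr1 and Scarb1 changed in opposite directions in the 2 cell types, and the astrocyte fall of Msr1 and Olr1 stood beside the fall of 11 of 13 microglia markers in the same libraries, whose part in it was not tested. Of all genes tested in astrocytes, 20.4% were called lower with Aβ42 and 18.4% with Aβ40 fibrils.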

How the results depend on the processing

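The fall of Cd36, Mrc1, Colec12 and Scarb1 and the rise of Msr1 in microglia, and the 5 calls in astrocytes against control, kept their direction and their call for both fibrils under each alternative that tested them, leaving out each replicate included. With a minimum of 10 counts in every library, Cd36 in microglia and Mrc1 in astrocytes were not tested. With DESeq2's Wald test, 2 receptors were called higher in astrocytes for either fibril, since Scarb2 was added. For Aβ42 against Aβ40 fibrils in microglia, the receptors called higher numbered 1 with DESeq2 size factors, with library totals and with the replicate block, and 0 in a fit of the 2 groups alone, and those called lower numbered 2 with library totals, the Wald test and no filter, and 0 with the replicate block and with the 2 groups alone. All genes called there numbered 752 with the block, 106 with the 2 groups alone against 2198 as reported. In astrocytes the same comparison called 10 genes, 141 with the Wald test, 265 with the 2 groups alone and 0 with the block, and no receptor among them. Leaving out 1 replicate gave 1 to 2 receptors higher in astrocytes with each fibril, 4 to 5 lower in microglia with each fibril, 0 to 2 higher and 0 to 4 lower between the fibrils in microglia, and 1 to 2 lower in the interaction with Aβ40 fibrils. The 2 in astrocytes came without astrocyte control replicate 2, the 2 in the interaction without that library, microglia Aβ42 replicate 1 or microglia Aβ40 replicate 3, and the 5 with Aβ40 fibrils without microglia Aβ42 replicate 1. The cause of these changes was not tested.

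Signs turned only for differences that were called in no setting. The Aβ42 interaction of Mrc1 was 0.062 with DESeq2 size factors, 0.051 with library totals, 0.092 with the Wald test and 0.011 with the replicate block, and that of Colec12 for Aβ40 fibrils was 0.028, 0.0069 and 0.039 in the first 3 and 0.015 with a minimum of 10 counts. Cd36 between the fibrils in microglia, with 8 against 3 counts, was -0.52 ± 1.29 by edgeR and 0.12 by the Wald test. Over single left-out replicates these ran from -0.36 to 0.29 for Mrc1, from -0.24 to 0.12 for Colec12 and from -1.09 to 0.24 for Cd36. The Aβ42 interaction of Colec12 ran from -0.34 to 0.077, and in astrocytes the difference between fibrils ran from -0.10 to 0.13 for Scarb1 and from -0.036 to 0.057 for Scarb2.

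Libraries with the same replicate number did not deviate together (correlations -0.53 to 0.36 in astrocytes, -0.19 to 0.22 in microglia), so the numbers were not taken as a pairing. Libraries with other numbers had correlations of -0.46 to 0.53 in astrocytes and -0.21 to 0.23 in microglia. Astrocyte control replicate 2, Aβ42 replicate 3 and Aβ40 replicate 1 correlated at 0.49 to 0.53 with each other. A batch shared under other numbers was not tested, and the replicate block does not cover it. With the replicate block, Scarb2 with Aβ42 fibrils in microglia (adjusted p = 0.0709) and Scarb1 and Msr1 between the fibrils (adjusted p = 0.0777 and 0.0578) were no longer called, and no other receptor changed its call. Low counts limited Cd36 and Mrc1 in treated astrocytes, where 1 and 21 counts remained in each group, in libraries of 8333014 to 19013919 counts.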
